A study of Mus musculus with 12 samples.

Results

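Nr2f2, Lhx1, Maf, Klf12, Cebpd, Nfat5, Nfatc4 and Arnt2 are 8 genes of sequence-specific transcription factors whose mRNA was measured in the oviduct of immature mice with and without estrogen receptor alpha (ESR1). They were taken by symbol, 1 probe set each, from a table of 45101 probe sets, of which 1828 could be located in all arrays under a single gene symbol. They were selected on their signals in these same arrays, at least 2-fold above WT in ESR1KO oviducts after PMSG, and each came from the study's list of changed transcripts, which was also made on them. Their values are therefore given as a description, with no test. Nfatc4 stood nearest to that limit, at 2.00-fold, followed by Nfat5 at 2.03-fold.

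RNA of the whole oviduct was hybridized to 12 Affymetrix mouse arrays, 3 for each of 4 groups, and each array held RNA pooled from 3 to 4 mice, with different mice in each replicate. ESR1KO mice (ESR1-/- and ESR1-/- ZP3Cre, on C57BL/6) lacked the receptor in all tissues, since the Zp3 promoter drives Cre in the oocyte and the deletion then passes through the germ line. WT mice were sibling controls (ESR1flox/- and ESR1flox/- ZP3Cre), so that the controls too carried 1 deleted copy beside 1 floxed copy, and in both genotypes the label covers mice with and without the Cre transgene. Untreated mice of either genotype were 23 days old, whereas the PMSG groups received 5 IU of pregnant mare serum gonadotropin (PMSG), which drives ovarian follicles to grow and make estradiol, at that age and were killed 48 h later. An effect of PMSG and 2 further days of age cannot be told apart here.

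ESR1 is a nuclear receptor that, once bound by estradiol, acts at estrogen response elements or through other DNA-bound factors to raise or lower transcription. The oviduct holds secretory and ciliated epithelium, stroma and smooth muscle, develops from the Müllerian duct, and keeps estrogen receptor in epithelium, stroma and muscle. The 8 factors come from 6 families. Nr2f2 (COUP-TFII) is an orphan nuclear receptor of mesenchyme that is needed in uterine stroma for implantation. Lhx1 is a LIM homeodomain factor needed for the Müllerian duct to form. Maf and Cebpd are basic leucine zipper factors, the latter known from acute-phase and inflammatory responses. Klf12 is a zinc finger repressor of the Krüppel-like family. Nfat5 and Nfatc4 share the Rel-like DNA-binding domain, but Nfat5 answers to hypertonic stress and Nfatc4 to calcium and calcineurin. Arnt2 is a bHLH-PAS protein that serves as dimer partner to other bHLH-PAS factors.

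Values are log2 expression signals, on which 1 unit is a 2-fold difference, and signals under 4 were taken as near background. Array medians ran from 5.63 to 5.75, and 41.5% to 42.3% of the signals of an array lay under 4. The targeted gene Esr1 was lower in every ESR1KO array than in every WT array, with means of 11.20 ± 0.87 (SD, n = 3) against 12.97 ± 0.07 without PMSG and 10.43 ± 0.28 against 12.55 ± 0.31 with it. Where its probes lie relative to the deleted part was not examined. ESR1KO replicate 2 stood apart, with an Esr1 signal of 12.13 against 10.42 and 11.05 in its group. Each marker of a cell type was read by its brightest probe set in the untreated ESR1KO arrays, a choice that favours high values. All 5 markers fixed for each of secretory epithelium, ciliated epithelium, stroma, smooth muscle, leukocytes, endothelium and mesothelium had means above 4. Among them was Ovgp1, the oviductal glycoprotein, at 15.94. Of the follicle markers, Amh (1.41) and Fshr (1.80) were near background while Inha (8.04) and Foxl2 (8.48) were not, and Cyp19a1 had no probe set. In whole tissue, fewer cells of a type and less RNA per cell cannot be told apart.

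With PMSG, the signals of all 8 genes were higher in ESR1KO than in WT oviducts, and in each gene all 3 ESR1KO arrays lay above all 3 WT arrays. The differences ran from 1.00 (Nfatc4) to 2.09 (Arnt2) on the log2 scale, with a median of 1.52 against 0.01 over all probe sets. Of all 45101 probe sets, 4.14% were at least 2-fold higher in this comparison and 11.5% did not overlap in this direction, and since these very values chose the genes, nothing is read from their count. Without PMSG the picture divided. Lhx1, Maf, Cebpd, Nfat5 and Arnt2 were higher in every ESR1KO array already, whereas the ESR1KO and WT arrays overlapped for Nr2f2, Klf12 and Nfatc4.

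**Figure D1:**
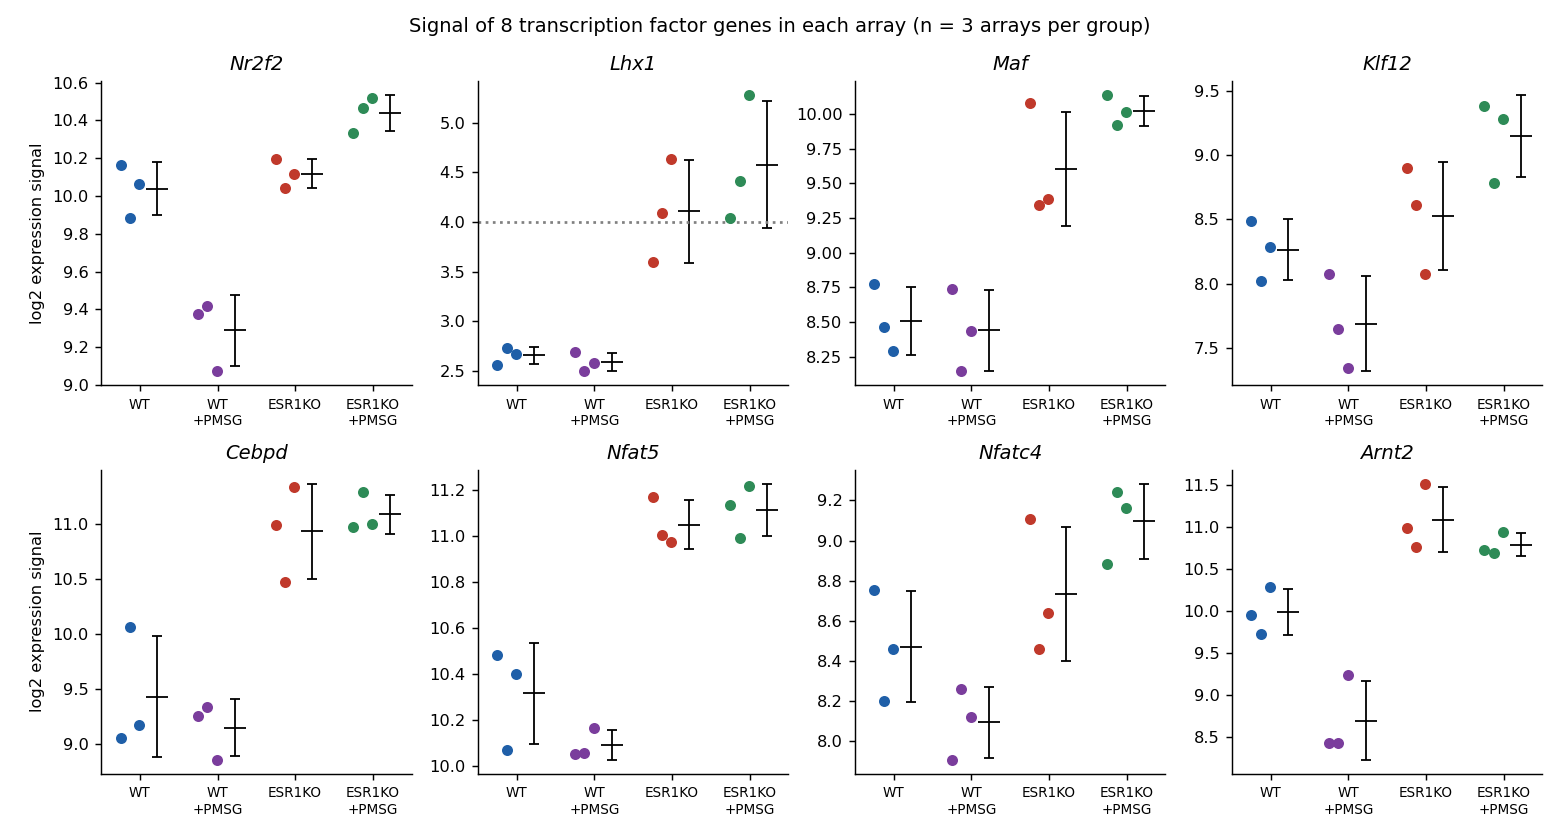
Log2 expression signal (vertical axes, a scale of its own for each gene) of the 8 genes in 4 groups of oviducts. Points are arrays, in replicate order from left to right, the bars to their right are mean ± SD (n = 3), and the dotted line in the Lhx1 panel marks the near-background limit of 4. In every panel the 3 PMSG-treated ESR1KO points lie above the 3 PMSG-treated WT points.

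Nr2f2 signals, in replicate order, were 10.16, 9.89 and 10.06 in WT, 9.37, 9.42 and 9.07 in PMSG-treated WT, 10.19, 10.04 and 10.12 in ESR1KO and 10.33, 10.47 and 10.52 in PMSG-treated ESR1KO oviducts. Untreated WT and ESR1KO arrays overlapped, the PMSG-treated WT arrays all lay below them and the PMSG-treated ESR1KO arrays all above. The genotypes differed by 0.08 ± 0.13 (SE of the limma fit, as in all differences that follow) without PMSG and by 1.15 ± 0.14 with it, a 2.22-fold difference. PMSG-treated WT oviducts were lower than WT by 0.75 ± 0.14, and PMSG-treated ESR1KO oviducts were higher than ESR1KO by 0.32 ± 0.13. Nr2f2 was the only one of the 8 genes with no overlap in either PMSG comparison and with opposite directions in the genotypes. The gap between untreated and PMSG-treated arrays was 0.47 in WT but only 0.14 in ESR1KO.

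Lhx1 signals were 2.56, 2.73 and 2.67 in WT, 2.69, 2.50 and 2.58 in PMSG-treated WT, 3.60, 4.09 and 4.64 in ESR1KO and 4.04, 4.41 and 5.28 in PMSG-treated ESR1KO oviducts. All 6 WT arrays were thus near background, and 1 of the 3 untreated ESR1KO arrays was as well. The genotypes did not overlap under either condition, while within each genotype the untreated and PMSG-treated arrays did. Differences of 1.45 ± 0.30 without and 1.99 ± 0.27 with PMSG rest on that near-background level, so that their size is uncertain. Against the limit of 4 in place of the WT values, the PMSG-treated ESR1KO mean would be 1.49-fold higher and the untreated one 1.08-fold higher. A second Lhx1 probe set, 1421951_at, read 1.52, 1.52 and 1.54 in the untreated ESR1KO arrays all near background.

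Maf signals were 8.77, 8.46 and 8.29 in WT, 8.73, 8.15 and 8.44 in PMSG-treated WT, 10.08, 9.34 and 9.38 in ESR1KO and 10.14, 9.92 and 10.01 in PMSG-treated ESR1KO oviducts. The genotype parted the arrays with and without PMSG, and PMSG did not part them in either genotype. Maf was 1.09 ± 0.22 higher in ESR1KO without PMSG (2.13-fold) and 1.59 ± 0.19 higher with it (3.00-fold).

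Cebpd, the other leucine zipper gene, had the same arrangement. Its signals were 9.05, 10.06 and 9.17 in WT, 9.25, 9.34 and 8.85 in PMSG-treated WT, 10.99, 10.47 and 11.33 in ESR1KO and 10.97, 11.29 and 11.00 in PMSG-treated ESR1KO oviducts. WT replicate 2 was the highest of the 6 WT arrays and still lay 0.41 below the lowest ESR1KO array. The genotypes differed by 1.505 ± 0.28 without PMSG (2.84-fold) and by 1.94 ± 0.26 with it (3.84-fold), and PMSG differences were within 0.28 in size in both genotypes.

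Klf12 signals were 8.49, 8.02 and 8.28 in WT, 8.08, 7.65 and 7.34 in PMSG-treated WT, 8.90, 8.61 and 8.07 in ESR1KO and 9.38, 8.79 and 9.28 in PMSG-treated ESR1KO oviducts. The group means stood in the order PMSG-treated WT, WT, ESR1KO, PMSG-treated ESR1KO, and each overlapped with its neighbours in that order. ESR1KO exceeded WT by 0.26 ± 0.26 without PMSG, no more than the SE, and by 1.46 ± 0.24 with it (2.75-fold). PMSG-treated WT lay 0.58 ± 0.24 below WT and PMSG-treated ESR1KO lay 0.62 ± 0.26 above ESR1KO, but neither pair was free of overlap.

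The calcium-responsive Nfatc4 was arranged like Klf12. Signals were 8.75, 8.20 and 8.46 in WT, 7.90, 8.26 and 8.12 in PMSG-treated WT, 9.11, 8.46 and 8.64 in ESR1KO and 8.88, 9.24 and 9.16 in PMSG-treated ESR1KO oviducts. The genotype difference was 0.26 ± 0.20 without PMSG, where the arrays overlapped, and 1.00 ± 0.19 with it.

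Nfat5, the osmotic stress factor, differed from its relative Nfatc4 in that its genotypes did not overlap without PMSG. Signals were 10.48, 10.07 and 10.40 in WT, 10.05, 10.06 and 10.16 in PMSG-treated WT, 11.17, 11.00 and 10.97 in ESR1KO and 11.13, 10.99 and 11.22 in PMSG-treated ESR1KO oviducts. All 6 ESR1KO arrays lay within 0.25 of each other and above all 6 WT arrays. The genotype difference was 0.73 ± 0.13 without PMSG (1.66-fold) and 1.02 ± 0.13 with it (2.03-fold), and PMSG differences were -0.23 ± 0.13 in WT and 0.06 ± 0.13 in ESR1KO.

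Arnt2 signals were 9.95, 9.73 and 10.28 in WT, 8.42, 8.43 and 9.23 in PMSG-treated WT, 10.98, 10.76 and 11.51 in ESR1KO and 10.73, 10.69 and 10.94 in PMSG-treated ESR1KO oviducts. PMSG-treated WT arrays were the lowest, WT arrays came next, and both ESR1KO groups lay above them and overlapped with each other. Arnt2 was 2.09 ± 0.24 higher in ESR1KO with PMSG (4.26-fold), the largest value of the 8 genes with all arrays, and was 1.10 ± 0.25 higher without it (2.14-fold). With 1 array left out that first place could pass to Lhx1 (2.26 against 2.12 without PMSG-treated ESR1KO replicate 1) or Cebpd (2.04 against 1.96 without PMSG-treated WT replicate 2). Arnt2 also had the largest PMSG difference, since PMSG-treated WT oviducts were 1.29 ± 0.24 lower than WT (2.45-fold), and it was the only gene whose mean was lower with PMSG in ESR1KO too, by 0.30 ± 0.25.

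**Figure D2:**
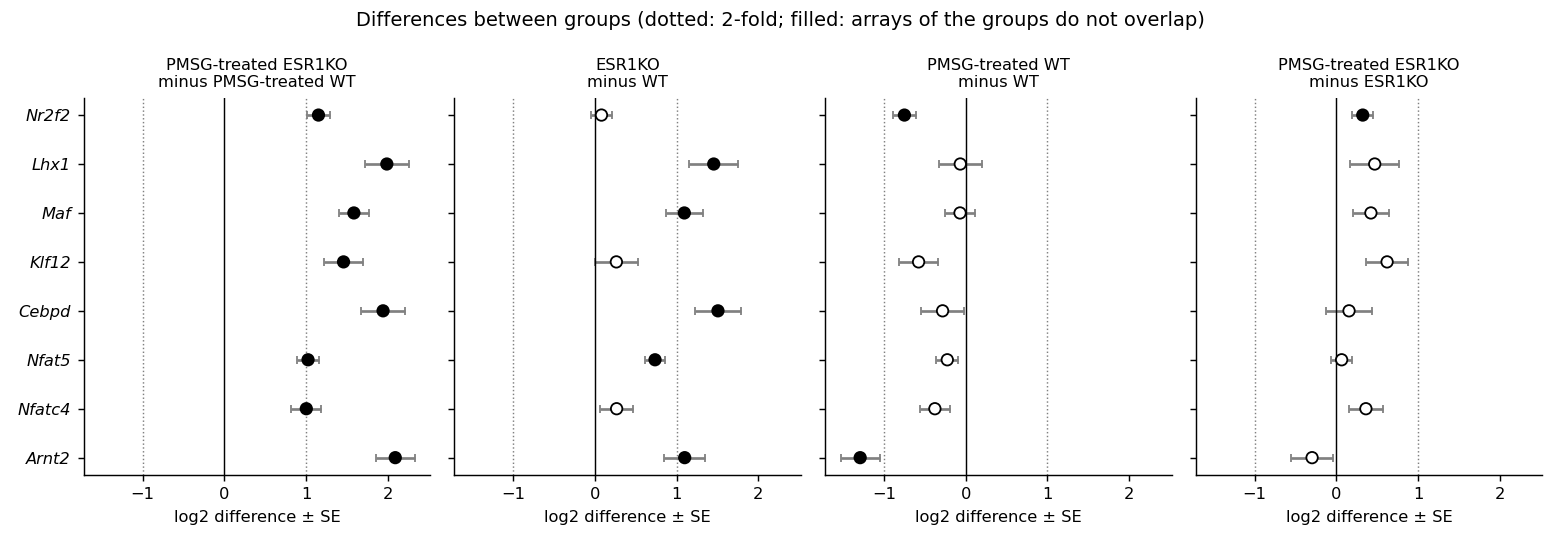
Log2 difference ± SE (horizontal axes) of the 8 genes in 4 comparisons, with dotted lines at 2-fold and filled points where the arrays of the compared groups did not overlap. All 8 points are filled and at or right of the 2-fold line for PMSG-treated ESR1KO against PMSG-treated WT, 5 are filled for ESR1KO against WT, 2 for PMSG-treated WT against WT and 1 for PMSG-treated ESR1KO against ESR1KO.

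Without PMSG, 4 of the 8 genes were at least 2-fold higher in ESR1KO (Lhx1, Maf, Cebpd and Arnt2), 5 did not overlap and the median difference was 0.91. The 1896 probe sets located in all 12 arrays had been listed by the study as changed on these arrays. Of these, 15.9% were at least 2-fold higher, 42.6% did not overlap in this direction and the median was 0.14. They were listed for changes in either direction, whereas the 8 genes were chosen as higher with PMSG. Higher values of the 8 were thus favoured by the choice, and nothing is read from their count. Without ESR1KO replicate 2, the array that stood apart, the differences were 0.12 for Nr2f2, 1.46 for Lhx1, 1.22 for Maf, 0.22 for Klf12, 1.74 for Cebpd, 0.76 for Nfat5, 0.40 for Nfatc4 and 1.26 for Arnt2. The same 4 genes then passed 2-fold. That array had the lowest signal of its group in 5 of the 8 genes and the highest in none.

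In WT oviducts the means of all 8 genes were lower with PMSG, with a median difference of -0.33 against 0.01 over all probe sets. The arrays were apart for Nr2f2 and Arnt2 and overlapped for the other 6, and Arnt2 alone was at least 2-fold lower. Over all probe sets, 1.75% were at least 2-fold lower and 8.32% did not overlap in this direction. In ESR1KO oviducts the means of 7 genes were higher with PMSG, with a median of 0.34 against 0.00 over the located probe sets, and Arnt2 was lower. None reached 2-fold and the arrays were apart for Nr2f2 alone, whereas 2.48% of the located probe sets were at least 2-fold higher and 14.7% did not overlap in this direction. The comparisons share arrays, and PMSG-treated WT and PMSG-treated ESR1KO also enter the comparison that chose the genes. A choice for a large difference with PMSG favours low PMSG-treated WT and high PMSG-treated ESR1KO values, so that the directions of the PMSG differences are no independent observation.

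The genotype difference with PMSG is the sum of the difference without PMSG, the PMSG difference in ESR1KO and the PMSG difference in WT with its sign turned, and the genes were unlike in how these shared it. In Cebpd (77.5%), Nfat5 (71.7%) and Maf (69.0%), most of it was present without PMSG, and no share is given for Lhx1, whose WT signals were near background. In Nr2f2 6.85% was present without PMSG, 65.1% lay in the lower signal of PMSG-treated WT and 28.0% in the higher signal of PMSG-treated ESR1KO. Klf12 (17.9%, 39.5% and 42.6%) and Nfatc4 (26.4%, 37.6% and 36.0%, in the same order) were split more evenly between the genotypes. Arnt2 combined a difference that was there without PMSG (52.5%) with a lower signal of PMSG-treated WT (61.7%), and the lower signal of PMSG-treated ESR1KO took 14.2% away (-14.2%). These shares carry no error of their own, and 1 array could move the small differences without PMSG behind them by over 1.5 times. That of Klf12 was 0.08 without ESR1KO replicate 1 and 0.49 without ESR1KO replicate 3, that of Nfatc4 0.08 without ESR1KO replicate 1 and 0.41 without WT replicate 1, and that of Nr2f2 0.002 without WT replicate 2 and 0.14 without WT replicate 1.

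**Figure D3:**
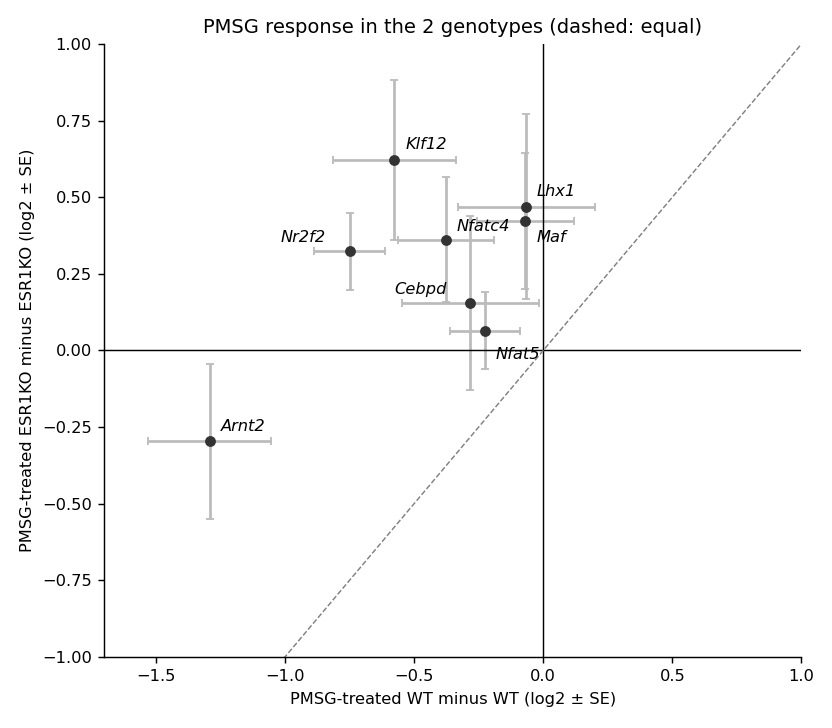
PMSG difference in WT (horizontal axis) and in ESR1KO oviducts (vertical axis) for each of the 8 genes, on the log2 scale with SE bars in both directions (3 arrays per group); points on the dashed line would have equal differences. Every point lies left of and above that line, Nr2f2 at -0.75 and 0.32, Klf12 at -0.58 and 0.62 and Arnt2 at -1.29 and -0.30.

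The genotype difference with PMSG minus that without was 1.20 ± 0.37 for Klf12, 1.07 ± 0.18 for Nr2f2, 0.99 ± 0.36 for Arnt2 and 0.74 ± 0.29 for Nfatc4. It was 0.54 ± 0.43 for Lhx1, 0.49 ± 0.32 for Maf, 0.44 ± 0.40 for Cebpd and 0.29 ± 0.18 for Nfat5. These values contain the difference with PMSG on which the genes were selected, so that high values were favoured by the choice and nothing is read from them against other probe sets. The median of the 8 was 0.64 and that of the located probe sets 0.09, and limma called 0.369% of the latter for this term at an adjusted p under 0.05 (7 probe sets, and 1 to 32 with 1 array left out).

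Sequence upstream of the genes is shown because it is where a receptor or partner acting directly could bind, and because Lhx1, Klf12 and Nfatc4 hold the estrogen response element core (GGTCA, or TGACC on the other strand) near the start while Nr2f2 and Arnt2 do not. Each run spans 250 bases before to 50 after the RefSeq gene start (GRCm38.p6), 5′ to 3′ on the strand of the gene, with the core in capitals. The windows are chr11:84525485-84525784, minus strand, for Lhx1, chr14:100149747-100150046, minus strand, for Klf12, chr14:55824545-55824844, plus strand, for Nfatc4, chr7:70366697-70366996, minus strand, for Nr2f2 and chr7:84409989-84410288, minus strand, for Arnt2.
Lhx1: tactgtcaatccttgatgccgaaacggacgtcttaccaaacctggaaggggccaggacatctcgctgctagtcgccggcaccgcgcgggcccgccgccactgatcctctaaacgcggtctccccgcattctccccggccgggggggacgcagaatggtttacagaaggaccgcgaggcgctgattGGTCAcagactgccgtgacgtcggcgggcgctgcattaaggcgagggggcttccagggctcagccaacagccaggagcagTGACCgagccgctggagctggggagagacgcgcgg
Klf12: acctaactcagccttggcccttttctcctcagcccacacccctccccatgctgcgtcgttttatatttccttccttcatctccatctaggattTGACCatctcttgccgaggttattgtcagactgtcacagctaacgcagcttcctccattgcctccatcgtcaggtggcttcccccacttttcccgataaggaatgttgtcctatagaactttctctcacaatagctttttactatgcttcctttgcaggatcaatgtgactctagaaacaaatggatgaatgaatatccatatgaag
Nfatc4: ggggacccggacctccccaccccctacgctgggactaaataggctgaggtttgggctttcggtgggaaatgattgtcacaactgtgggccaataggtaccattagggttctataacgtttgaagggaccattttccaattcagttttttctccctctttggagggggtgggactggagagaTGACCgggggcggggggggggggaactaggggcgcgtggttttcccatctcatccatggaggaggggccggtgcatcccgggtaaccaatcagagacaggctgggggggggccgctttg
Nr2f2: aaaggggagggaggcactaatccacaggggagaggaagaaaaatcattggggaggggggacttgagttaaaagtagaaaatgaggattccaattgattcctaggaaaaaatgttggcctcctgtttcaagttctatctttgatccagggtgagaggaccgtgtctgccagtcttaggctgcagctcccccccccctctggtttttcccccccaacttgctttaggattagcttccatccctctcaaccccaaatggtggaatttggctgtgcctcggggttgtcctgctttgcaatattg
Arnt2: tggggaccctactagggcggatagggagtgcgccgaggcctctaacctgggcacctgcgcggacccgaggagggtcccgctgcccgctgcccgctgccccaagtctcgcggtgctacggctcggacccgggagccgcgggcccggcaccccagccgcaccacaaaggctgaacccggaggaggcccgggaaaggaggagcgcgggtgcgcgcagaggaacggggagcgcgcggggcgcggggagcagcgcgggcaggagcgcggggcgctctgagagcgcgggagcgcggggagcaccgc
Of the 6 genes with a RefSeq promoter entry, which include Nfat5 but not Maf and Cebpd, 3 held the core, against 40.5% of 32851 promoters of the same length. Lhx1 held it 2 times, as GGTCA starting at position -65 and as TGACC at position 16 from the gene start, Klf12 once at -157 and Nfatc4 once at -69. The full palindrome GGTCANNNTGACC was in none of the 6 and in 0.07% of all promoters, and the GC box (GGGCGG or CCGCCC) was in 3 of the 6 (Nfat5, Nfatc4 and Arnt2) and in 35.7% of all. These are matches of letters within a short window and say nothing of binding. The core was in Nfatc4 and Klf12, whose arrays overlapped between genotypes without PMSG, and in Lhx1, whose arrays did not. It was absent from Nr2f2, whose arrays overlapped as well, and from Nfat5 and Arnt2, whose arrays did not. With 6 genes, and a core held by 40.5% of all promoters, a relation between the core and these patterns was not tested.

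Likeness between profiles was measured as the root mean square difference of the 12 signals after each gene was centred on its own mean, against 1827 other named probe sets. All of these came from the list of changed transcripts, and the points share the same arrays. The profiles nearest to Nr2f2 were those of Cdc42ep3 and Nr3c1, the glucocorticoid receptor, both at 0.15, and Nr3c1 means were 10.70 in WT, 10.24 in PMSG-treated WT, 10.99 in ESR1KO and 11.10 in PMSG-treated ESR1KO. Nearest to Maf were Cdh11 (0.19), a cadherin of mesenchyme, and Pdgfra (0.22), a stromal growth factor receptor. Nearest to Cebpd were Ltf (0.21), which encodes lactoferrin, and Mgl2 (0.28). For Nfat5 they were Ltbp3 (0.11) and Phactr2 (0.15), and for Nfatc4 Arhgef17 (0.09) and the steroid receptor coactivator Ncoa1 (0.14). Those of Klf12 were Reck (0.22) and 3010001F23Rik (0.23), those of Arnt2 Nipsnap1 (0.28) and Pde4d (0.31), and those of Lhx1 Abca5 (0.31) and Adcy8 (0.32). Among the 8 genes themselves the closest pair was Nr2f2 and Nfatc4, at 0.21, followed by Nfat5 and Nfatc4, at 0.24. With Nr2f2 itself counted, 31 named probe sets were nearer to Nr2f2 than Nfatc4 was.

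Of the markers of cell types, 6 could be located in all arrays. These were located through the list of changed transcripts, so that they are no unselected sample of the markers. Means in WT, PMSG-treated WT, ESR1KO and PMSG-treated ESR1KO were 12.09, 12.27, 13.21 and 13.76 for Pdgfra, and 11.98, 11.71, 9.54 and 9.61 for Lum. These stromal markers thus went opposite ways with genotype, and 2 of the 5 stromal markers were located. The endothelial Pecam1 stood at 8.15, 7.72, 4.91 and 6.46, Emcn at 9.24, 8.93, 7.67 and 8.61 and Kdr at 7.32, 7.66, 6.82 and 7.43. The means of all 3 located endothelial markers were thus lower in ESR1KO with and without PMSG. For Kdr with PMSG the means were close (7.66 ± 0.25 in WT against 7.43 ± 0.14 in ESR1KO, SD). The endothelial markers Cdh5 and Tek were not located. The mesothelial Lrrn4 stood at 8.87, 9.20, 10.26 and 10.59, higher in ESR1KO like the 8 genes, and the other mesothelial markers were not located. The part of cell composition in the differences of the 8 genes was not tested.

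Relatives and partners of the 8 factors were taken from 12 lists with 130 genes in all, of which 119 had a probe set and 18 could be located, all through the list of changed transcripts, so that these are no unselected sample of their families. With PMSG, limma called 4 higher and 3 lower in ESR1KO (a 2-fold difference or more at a Benjamini-Hochberg adjusted p under 0.05). Over all probe sets 2.76% were called higher and 1.72% lower. Those shares are of unselected probe sets, so that the calls among the 18 cannot be read as an excess over them. Means of 13 of the 18 were higher and of 5 lower. The median difference of the 18 was 0.64, against 0.35 over the located probe sets. The retinoic acid receptor Rarb, among 6 retinoid receptors, was higher in ESR1KO. After PMSG its means were 2.66 ± 0.66 in WT and 5.94 ± 0.22 in ESR1KO (SD, n = 3, limma adjusted p = 0.00188). The WT level is near background, which leaves the difference of 3.28 ± 0.40 uncertain in size.

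**Figure D4:**
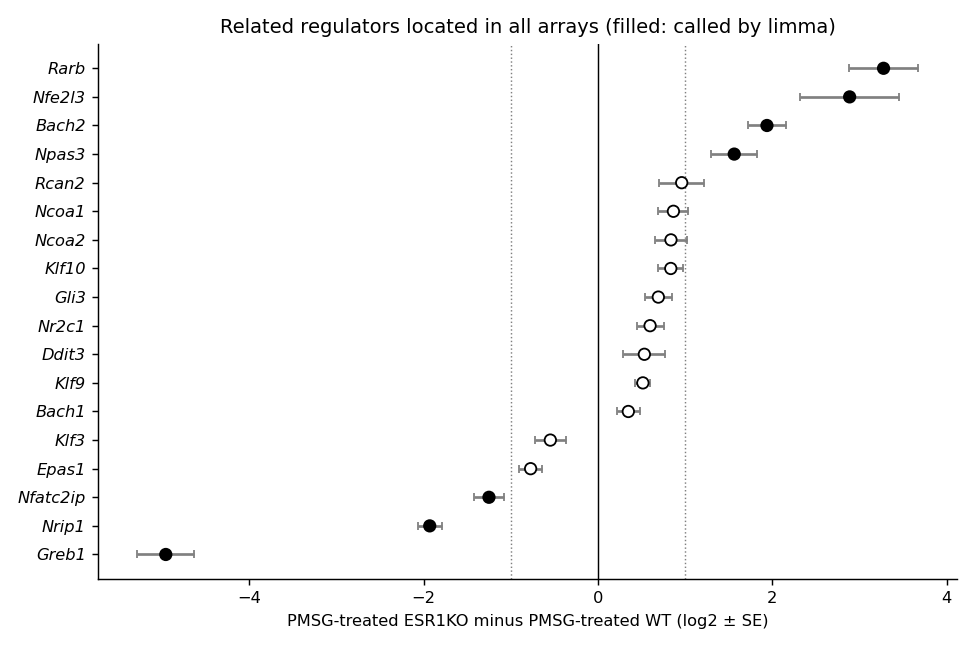
Log2 difference ± SE between PMSG-treated ESR1KO and PMSG-treated WT oviducts (horizontal axis, n = 3 arrays per group) of the 18 located relatives and partners of the 8 factors, with dotted lines at 2-fold and filled points where limma called the difference. The 7 filled points are Rarb, Nfe2l3, Bach2 and Npas3 on the higher side and Nfatc2ip, Nrip1 and Greb1 on the lower side.

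Of 12 members of the MAF, BACH and NFE2 family, which share the basic leucine zipper of Maf, 3 were located. With PMSG, 2 were called higher in ESR1KO. Nfe2l3 was higher by 2.89 ± 0.57 (limma adjusted p = 0.0180), a call that was lost when any 1 of the PMSG-treated ESR1KO arrays was left out (limma adjusted p up to 0.0809 over the alternatives), and Bach2, a repressor best known in lymphocytes, by 1.94 ± 0.21 (limma adjusted p = 0.00109). Bach2 means were 7.56 in WT, 7.31 in PMSG-treated WT, 9.17 in ESR1KO and 9.25 in PMSG-treated ESR1KO, and it was the only relative called higher without PMSG too, by 1.61 ± 0.21 (limma adjusted p at most 0.00699, and at most 0.0525 without WT replicate 2). Among 15 genes of the bHLH-PAS family of Arnt2, 2 were located. With PMSG, Npas3 was 1.56 ± 0.27 higher in ESR1KO (limma adjusted p = 0.00922), from a mean of 4.57 ± 0.41 (SD) in WT. Without PMSG it differed by -0.14 ± 0.31. Epas1, the hypoxia-inducible factor that is highly expressed in endothelium, was lower by 0.77 with PMSG (limma adjusted p = 0.0101) and did not reach 2-fold.

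Of 13 genes of the NFAT family and the calcineurin pathway, 2 were located. Nfatc2ip, a protein that binds an NFAT factor, was 1.25 ± 0.17 lower in ESR1KO with PMSG (limma adjusted p = 0.00343). Rcan2, an inhibitor of calcineurin, was 0.96 higher with PMSG but differed by -1.03 without PMSG, and was called in neither. None of the 3 located Krüppel-like genes was called, with Klf10 at 0.83 (limma adjusted p = 0.00912), Klf9 at 0.51 (limma adjusted p = 0.00782) and Klf3 at -0.55, all under 2-fold. The Klf9 difference without PMSG had the other sign, at -0.31. In all, 6 relatives had a limma adjusted p under 0.05 below 2-fold, namely Klf9, Klf10, Epas1, Gli3, Ncoa1 and Ncoa2. Not called either were Ddit3 of the C/EBP family (0.53), Nr2c1, an orphan receptor related to Nr2f2 (0.60), and Gli3 of the hedgehog pathway (0.69). No member could be located of the lists of LIM homeobox genes, of Müllerian duct factors and of osmotic target genes of Nfat5, so these were not analysed here. Of 11 coregulators and partners of ESR1, 4 were located. Greb1, a classical estrogen-induced gene, fell by 4.96 ± 0.32 with PMSG (limma adjusted p = 8.1e-05) to a mean of 2.90 and by 2.90 ± 0.37 without PMSG (limma adjusted p at most 0.00572, and at most 0.0514 with only the 6 arrays compared) to a mean of 3.24. Both ESR1KO levels of Greb1 are near background, which leaves the size of these differences uncertain. Without PMSG, limma called 8.86% of the located probe sets higher and 8.81% lower. With PMSG, Nrip1, a corepressor recruited by ESR1, was 1.93 ± 0.14 lower in ESR1KO (limma adjusted p = 0.000115). The coactivators Ncoa1 and Ncoa2 were higher by 0.87 and 0.84 and not called. No relative was called by limma in either PMSG comparison, where 10 of the 18 in WT and 5 in ESR1KO had an unadjusted p under 0.05. Klf9 alone had a limma adjusted p under 0.05 there, for PMSG in WT, where it was lower by 0.61 (-0.61; adjusted p = 0.0311). The unmoderated model called 0 as well, and limma called 0.251% of all probe sets in WT and 0.105% of the located ones in ESR1KO.

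The 8 genes were represented by 34 probe sets, of which only the located 8 could be compared across the groups. In the 3 untreated ESR1KO arrays, where all could be read, 15 of the other 26 had a mean of at least 4. For Nr2f2 the located probe set 1436475_at read 10.19, 10.04 and 10.12, whereas 1444229_at read 10.54, 9.66 and 8.59 and 1416160_at read 11.22, 10.59 and 9.56. Probe sets of 1 gene thus disagreed about how alike the 3 arrays were. The same was seen for Klf12, where 1455521_at (located) read 8.90, 8.61 and 8.07 but 1439847_s_at read 10.82, 9.72 and 8.20, and for Maf, where 1447849_s_at (located) read 10.08, 9.34 and 9.38 but 1456060_at read 12.91, 11.98 and 11.33. The SD over the 3 arrays was larger than that of the located probe set of the same gene in 14 of the 15. The located ones had been listed by a test on these arrays, so that their spread entered the choice. Over all located probe sets with a mean of at least 4 the median SD was 0.24, and over the other 24400 it was 0.28.

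**Figure D5:**
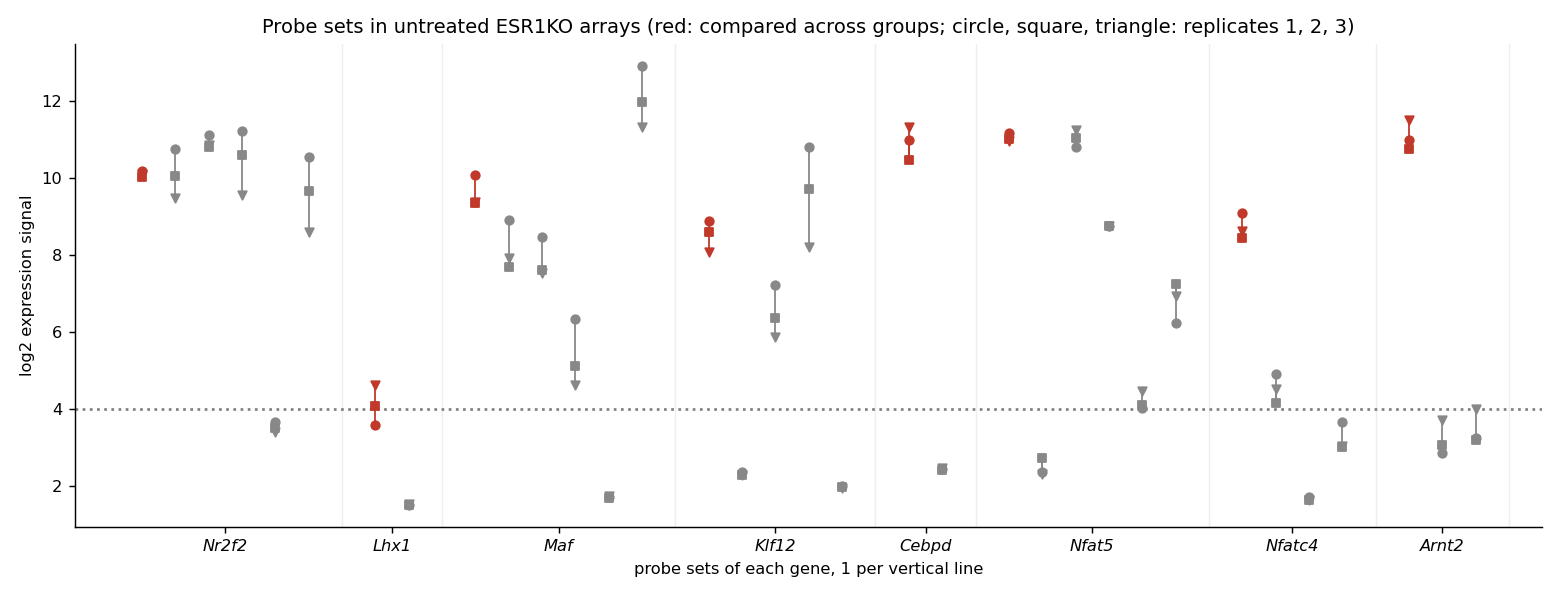
Log2 expression signal (vertical axis) of all 34 probe sets of the 8 genes in the 3 untreated ESR1KO arrays, 1 probe set per vertical line, with a circle, square and triangle for replicates 1, 2 and 3, red for the probe set compared across groups and a dotted line at the near-background limit of 4. The located Nr2f2 probe set spans 0.15 and the widest other Nr2f2 probe set spans 1.95.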

How the data were processed

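The authors processed the 12 arrays in Partek Genomics Suite 6.6, correcting background by GC-RMA, normalizing by quantiles and summarizing probes by median polish, and deposited log2 signals per probe set. Background correction compresses weak signals, and detection calls were not used here. Only the columns of untreated ESR1KO arrays run in the order of the probe set names. The remaining 9 share a different order: signals correlated at 0.985 to 0.993 within the first, 0.959 to 0.997 within the second and -0.146 to -0.123 between them. Rows were therefore located through the 1997 held rows of the study's list of changed transcripts, an alphabetical list held only in part, so that 7 of the 130 relatives sort after its end. Its fold changes served only as a key, and its p-values were not used. All 1997 matched within 0.0001 log2 in the 9 columns and 1896 in all 12, the 8 genes within 4.0e-05, their second-best rows at 0.00922 or more. The symbol decided between 5 candidate untreated ESR1KO rows for Arnt2 and 3 for Nfatc4. The annotation gave 34958 probe sets 1 symbol, 932 several and 9211 none.

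limma 3.58.1 (R 4.3.3; lmFit, eBayes with variance trend, Benjamini-Hochberg) was fitted to all 45101 rows of the 9 columns. Comparisons with untreated ESR1KO used the located rows of 12 arrays, taking over the prior variance of that fit (prior degrees of freedom of 2.87) and adjusting over 45101 tests, so that their adjusted p is an upper bound. A design with 1 fit over all rows of 12 arrays was not possible. p-values measure the spread between pooled samples, whose number limits the precision. The script was tested on simulated data. The genes and lists were chosen with earlier results of these data known. Named were the 8 genes, Esr1, for each gene the 2 nearest profiles, and per list up to 3 called members, or up to 2 located ones where none was called. Bach2, Greb1 and others are named under that rule, and Epas1, Rcan2, Klf9, Ncoa1, Ncoa2, the markers and the probe sets shown were named after their values were seen. Alternatives were other filters, fits and normalization, a replicate block, and each array left out. The figures were drawn with matplotlib 3.10.9.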

Additional observations from a re-analysis of the deposited data

Results flagged for a closer look

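Nr2f2 was picked out because its PMSG difference ran opposite ways in the genotypes, with every PMSG-treated WT array below every WT array and every PMSG-treated ESR1KO array above every ESR1KO array. The difference between them was 1.07 ± 0.18 (SE) on the log2 scale. It was not tested, since the gene had been chosen on these arrays. In ESR1KO the gap between the arrays was only 0.14 and rests on 1 probe set, whose untreated ESR1KO arrays span 0.15. The other 4 Nr2f2 probe sets with a mean of at least 4 span 0.31 to 1.95 over the same arrays.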

How the results depend on the processing

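The median differences of the 8 genes kept their direction under repeated quantile normalization, with the replicate block and with each array left out, where they ranged from 1.43 to 1.69 for ESR1KO against WT with PMSG, 0.76 to 0.99 without PMSG, -0.43 to -0.31 for PMSG in WT and 0.24 to 0.37 for PMSG in ESR1KO. The number of genes at least 2-fold higher with PMSG ranged from 6 to 8 (6 without PMSG-treated ESR1KO replicate 3) and that without PMSG from 3 to 4. At a fold minimum of 1.5, Nfat5 (1.66-fold) was added to the genes higher in ESR1KO without PMSG. At that minimum, 1 gene (Klf12) in place of 0 was higher with PMSG in ESR1KO. Of 504 alternative values for single genes, 4 turned sign: Maf with PMSG in WT, to 0.06 without WT replicate 1 and 0.08 without PMSG-treated WT replicate 2, and Cebpd, to 0.03 in WT without WT replicate 2 and to -0.08 in ESR1KO without ESR1KO replicate 2.

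The counts of called probe sets moved more, and the causes were not tested. Comparisons without untreated ESR1KO arrays were counted over all 45101 probe sets, and those with them over the 1896 located ones. The located ones came from the list of changed transcripts, so that counts of these kinds cannot be set side by side. The filter on mean signal left 26222 and 1785 probe sets. For ESR1KO against WT with PMSG, 2022 were called, 1255 with the unmoderated model, 1313 with only the 6 arrays compared, and 1248 to 2422 with 1 array left out (fewest without PMSG-treated ESR1KO replicate 3). For ESR1KO against WT without PMSG, 335 were called, 110 with the unmoderated model, 124 with 6 arrays, and 84 to 463 with 1 array left out (fewest without WT replicate 2). For PMSG in WT, 113 were called, 179 at a mean signal of at least 4, 19 with the unmoderated model, 46 with the replicate block, 36 with 6 arrays, and 41 to 346 with 1 array left out (most without PMSG-treated WT replicate 3). For PMSG in ESR1KO, 2 were called, 0 at a mean signal of at least 4, 0 without variance trend, 0 with the unmoderated model, 0 with 6 arrays, and 0 to 6 with 1 array left out. For genotype by PMSG, whose alternatives were added after seeing the data, 7 were called, 13 without variance trend, 1 with the unmoderated model, 4 with the replicate block, and 1 to 32 with 1 array left out (most without PMSG-treated WT replicate 3). Arrays with the same replicate number deviated together at correlations of -0.124 to 0.356, and 5 of 9 arrays correlated best with their own number, while over the located probe sets of 12 arrays the correlations were -0.118 to 0.260 and 8 of 12 did so. Between groups, arrays with different numbers had correlations of -0.3226 to 0.1979 over the 9 arrays. Over the located probe sets of 12 arrays these were -0.2712 to 0.1985. Not every pair with the same number passed 0.1, and the numbers were not taken to pair samples. Whether they mark a shared batch was not tested. The replicate block left the differences as they were, narrowed some SEs (for Arnt2 with PMSG from 0.24 to 0.15) and moved no other count by over 1.5 times. Of the calls of related genes, that of Nfe2l3 was lost under 5 of 15 alternatives, those of Bach2 and Greb1 without PMSG under 1 of 18 each, and the other 6 under none; these alternatives were added after seeing the data. A second probe set of each gene was not run, because none could be located in all arrays. With 3 pooled arrays per group and near-background WT signals of Lhx1, small differences and the size of large ones in weak genes were limited in precision.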

Other observations

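In the untreated ESR1KO arrays, replicate 1 read highest and replicate 3 lowest in the 5 probe sets with the largest SD, which belong to Klf12 (1439847_s_at), Nr2f2 (1444229_at and 1416160_at) and Maf (1444073_at and 1456060_at). Signals of Esr1 were 10.42 in replicate 1, 12.13 in replicate 2 and 11.05 in replicate 3.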
